A study of Mus musculus with 13 samples.

Results

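Complement genes were followed in mouse tail tissue with lymphedema, a chronic swelling of skin that follows failed lymph drainage. The set was a list of 34 mouse symbols that spans the activation pathways, the terminal pathway, regulators and receptors. Of these, 33 had a row among the 55357 genes of the count table, and 31 passed the filter on low counts and were tested. Masp3 had no row of its own and is only named. Masp2, a serine protease of the lectin pathway, had 0 to 6 counts a library in TNTProx1 and 0 to 8 in TNTSham, and C8g, a subunit of C8, had 0 to 12 in TNTProx1 and 3 to 13 in TNTSham. Neither was tested.

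Total RNA was sequenced from 6 samples labelled TNTProx1 and 7 labelled TNTSham. Every sample was tail tissue taken 28 days after TNT, at an age of 12 weeks. TNT is read here as tissue nanotransfection, a local electric delivery of nucleic acid into skin, and Prox1 is the transcription factor that specifies lymphatic endothelium; the labels spell out neither. They give no strain, sex, construct or vehicle for either group, and name no tail without lymphedema. Nothing in them says that each sample was a separate animal, so p-values measure only the spread between these samples.

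Complement is a set of proteases, adaptors and receptors that marks microbes, immune complexes and dying cells for removal. The classical pathway starts when C1q binds a target and its attached proteases C1r and C1s cut C4 and C2; the lectin pathway reaches the same step through sugar-binding collectins or ficolins with MASP proteases; the alternative pathway amplifies C3b through factor B and properdin. All converge on C3, and cleavage of C3 and C5 releases the peptides C3a and C5a, which act on receptors of leukocytes, while C5b starts the membrane attack complex. Much of plasma complement is made by hepatocytes, whereas C1q comes mainly from macrophages, and fibroblasts make C1r, C1s, C3 and C1 inhibitor.

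Libraries held 29691929 to 48007392 counts. TNTProx1 4, 5 and 6 differed from the remaining 10 libraries in RNA make-up, with 0.136 to 0.193% of counts on genes of the annotation class TEC, predicted genes without experimental proof, against 0.378 to 0.745% in the others. Prox1 itself had a log2 fold change of 0.41 ± 0.23 (edgeR adjusted p = 0.506) in reads of the mouse gene. TNTSham 1 was the only library with Xist, the X-inactivation RNA, above 2.01 CPM, at 2095 CPM. Results are therefore also given for the 10 libraries without TNTProx1 4 to 6, and where TNTSham 1 stood apart its value is named. CPM, the usual library-size scaled unit, was computed with effective sizes from the trimmed mean of M values. Mean levels are given ± SD (n = 6 TNTProx1 and n = 7 TNTSham) and log2 fold changes, TNTProx1 over TNTSham, ± SE. Keratinocyte markers, 8 genes such as Krt5 and Krt14, were present in every library, with a summed level of 5537 to 56824 CPM in TNTProx1 and 25770.2 to 40380.5 CPM in TNTSham; TNTProx1 2 had the lowest sum. Hepatocyte markers stayed at a summed 1.34 to 3.06 CPM in TNTProx1 and 1.20 to 3.97 CPM in TNTSham over 8 genes, with Apob under 0.1 CPM in every library.

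The complement genes with the smallest p-values were genes of the C1 complex, 1 collectin, properdin and the C5a receptor. C1qa, C1qb, C1qc, C1ra, Colec12, Cfp and C5ar1 stood higher in TNTProx1, at log2 fold changes of 0.29 to 0.72 and unadjusted p-values under 0.05. None passed the adjusted threshold of 0.05. When each library was left out in turn, C1qa kept an unadjusted p under 0.05 in 4 of 13 fits and C1qc in 11, losing it without TNTProx1 4 or 5, and the other 5 genes kept it in all 13. By edgeR's quasi-likelihood test with Benjamini-Hochberg adjustment over all 22876 tested genes, 0 complement genes were called, beside 0% of all genes. At an unadjusted p under 0.05, 7 were higher and 0 lower, that is 7 of 31, where 8.33% of all genes were higher and 3.92% lower. DESeq2 called 2 complement genes, Cfp and C5ar1, beside 2.77% of all genes with an adjusted p, 2.02% in the higher direction; limma voom with quality weights called Colec12 and C5ar1, both higher, beside 2.5% of all genes and 1.86% in that direction. The median log2 fold change of the 31 genes was 0.05, with 19 higher and 12 lower, and that of all tested genes was -0.02, with 47.7% higher. Without TNTProx1 4 to 6 the median was 0.17, with 24 higher, 5 of them at an unadjusted p under 0.05, namely C1ra, Colec12, Cfp, C3ar1 and C5ar1, where 9.34% of all genes were higher at that p. Without TNTSham 1 the 7 genes and C1rb were, 8 in all, beside 8.43% of all genes.

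**Figure D1:**
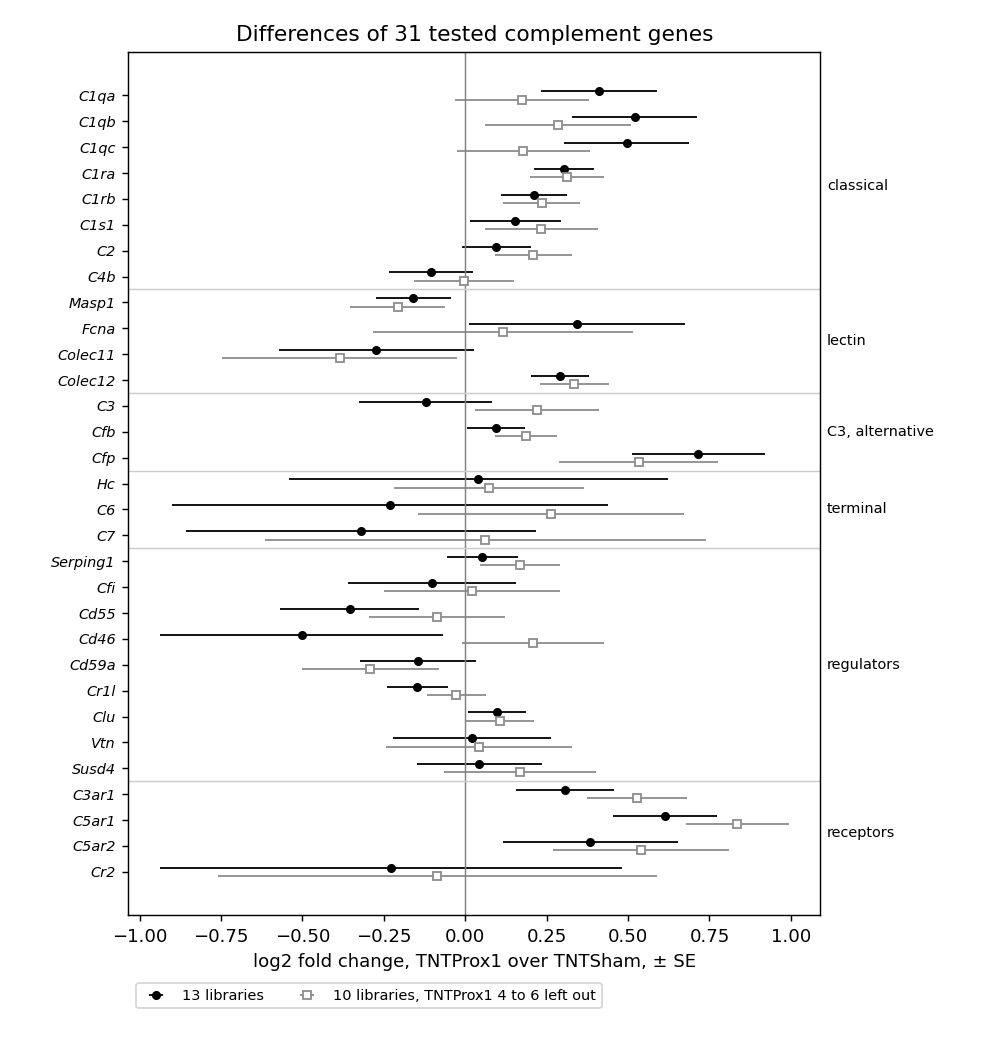
Log2 fold change of TNTProx1 over TNTSham (x axis) for the 31 tested complement genes (y axis, grouped by role), as filled circles for all 13 libraries and open squares for the 10 libraries without TNTProx1 4 to 6, with bars of ± 1 SE. Cfp (0.72) and C5ar1 (0.61) lie farthest to the right over 13 libraries, and Cd46 (-0.50) farthest to the left, where its square lies on the other side of 0.

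By role, the median log2 fold change was 0.26 for the 8 classical genes, 0.07 for the 4 tested lectin genes and 0.09 for C3 with the 2 alternative pathway genes. It was -0.23 for the 3 tested terminal genes, -0.10 for the 9 regulators and 0.35 for the 4 receptors. The classical genes were 7 higher to 1 lower and the receptors 3 to 1, against 4 to 5 among regulators. Without TNTProx1 4 to 6 the same medians were 0.22, -0.05, 0.22, 0.07, 0.04 and 0.53, so those of the lectin, terminal and regulator genes turned sign. With 1 library left out the receptor median was 0.22 without TNTProx1 2, and without TNTProx1 4 the terminal and regulator medians were 0.03 and 0.0091. The medians of the lectin genes and of C3 with the alternative pathway genes were 0.03 and 0.05 without TNTProx1 2, and that of all 31 genes was 0.0038. These medians are a description of small lists, and differences between the roles were not tested.

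Levels were compared between genes only per kilobase of exon, over all exons of a gene. C1ra, C1s1, C4b, C2 and Cfb share sequence with other genes, as given below, which limits how exactly they can be ranked. Serping1, which encodes C1 inhibitor, was the highest of the set, at 234 CPM per kilobase in TNTProx1 and 226 in TNTSham. C1qb came next, at 125 CPM per kilobase in TNTProx1 and 87.3 in TNTSham, and then C1qa, at 95.4 CPM per kilobase in TNTProx1 and 71.8 in TNTSham, whereas C1qc had 55.2 CPM per kilobase in TNTProx1 and 39.2 in TNTSham. C3 stood at 58.3 CPM per kilobase in TNTProx1 and 63.4 in TNTSham, C1s1 at 56.5 CPM per kilobase in TNTProx1 and 50.7 in TNTSham and Cfb at 52.9 CPM per kilobase in TNTProx1 and 49.6 in TNTSham. C2, the lowest classical gene, had 15.4 CPM per kilobase in TNTProx1 and 14.4 in TNTSham. Lectin and terminal genes lay on both sides of C2. Colec12 had 24.8 CPM per kilobase in TNTProx1 and 20.2 in TNTSham, and C7 had 13.8 CPM per kilobase in TNTProx1 and 17.3 in TNTSham. The soluble lectin gene Colec11 had 0.880 CPM per kilobase in TNTProx1 and 1.07 in TNTSham. C6 had 0.429 CPM per kilobase in TNTProx1 and 0.504 in TNTSham. Hc, which encodes C5, had 0.348 CPM per kilobase in TNTProx1 and 0.339 in TNTSham. Transcripts of the classical cascade up to C3 were abundant in both groups.

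**Figure D2:**
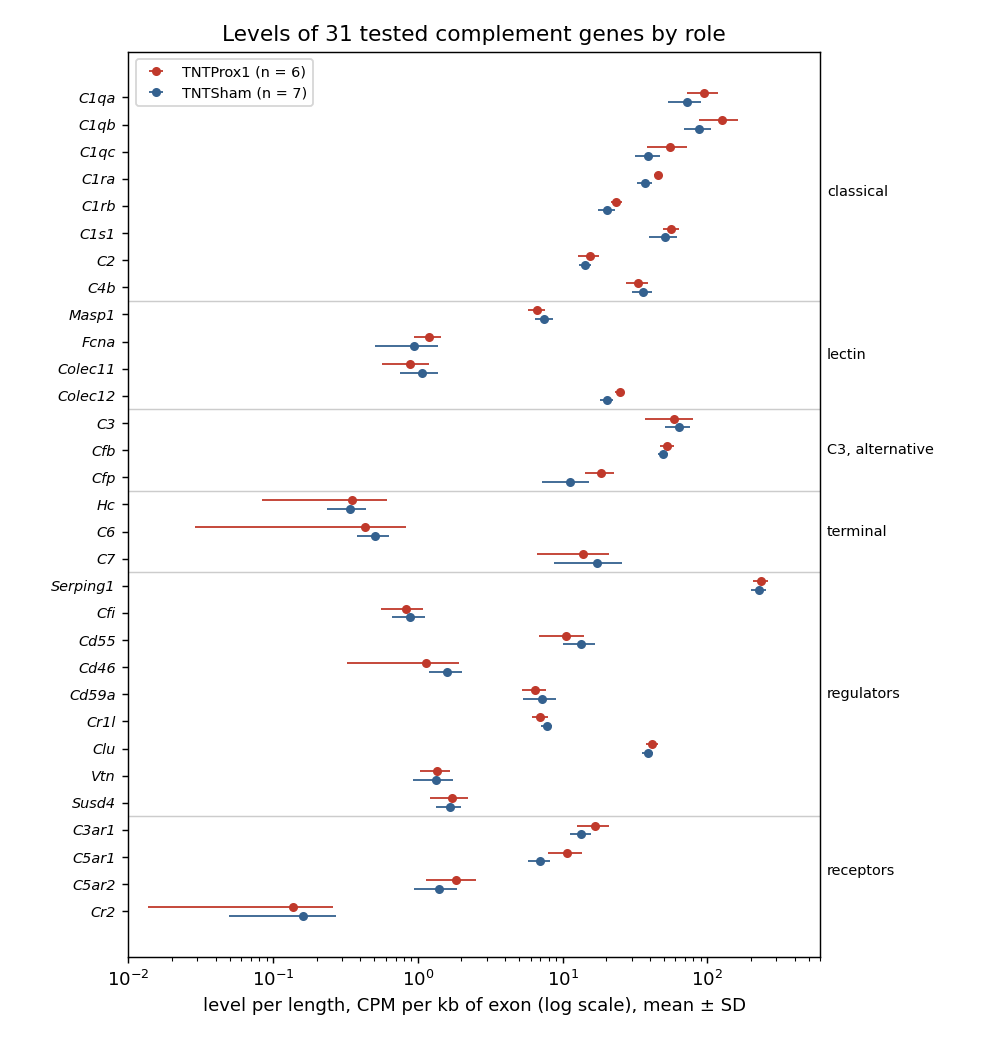
Mean level in CPM per kilobase of exon (x axis, log scale) of the 31 tested complement genes (y axis, by role) in TNTProx1 (red, n = 6) and TNTSham (blue, n = 7), with bars of ± 1 SD. Serping1 is highest, at 234 CPM per kilobase in TNTProx1 and 226 in TNTSham, and Cr2 lowest.

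C1q is built from 3 chains, each with its own gene, and all 3 stood higher in TNTProx1. C1qa (ENSMUSG00000036887.6) had a lowest, median and highest value of 67.8, 104 and 129.6 CPM in TNTProx1, against 59.4, 68.2 and 116 CPM in TNTSham. C1qb (ENSMUSG00000036905.9) had 81.2 to 183 CPM in TNTProx1, with a median of 143, against 72.8 to 122 CPM in TNTSham, with a median of 83.7. C1qc (ENSMUSG00000036896.6) had a median of 109 CPM in TNTProx1 (lowest 58.6, highest 143) and of 66.4 CPM in TNTSham (lowest 58.6, highest 92.6). TNTProx1 2, 4, 5 and 6 held the 4 highest values of C1qb and of C1qc, TNTProx1 1 and 3 lay within or just under the sham range, and the groups overlapped. TNTSham 1, at 116 CPM of C1qa, was above the other 6 sham libraries, which lay between 59.4 and 77.2 CPM. The edgeR log2 fold changes were 0.41 ± 0.18 for C1qa (unadjusted p = 0.0364, adjusted p = 0.372), 0.52 ± 0.19 for C1qb (unadjusted p = 0.0162, adjusted p = 0.276) and 0.50 ± 0.19 for C1qc (unadjusted p = 0.0215, adjusted p = 0.302). Without TNTProx1 4 to 6 they shrank to 0.17 ± 0.21, 0.29 ± 0.22 and 0.18 ± 0.20. In bulk tissue more or fewer cells of a type and more or less RNA per cell cannot be told apart.

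The promoters of C1qb and C1qc are shown because both genes are macrophage genes that were high in the same libraries. Each run is the 250 bases before the RefSeq start site in build GRCm38.p6, 5′ to 3′ on the gene's strand, and capitals mark the motif GGAAGT, a core that ETS factors recognise, or its reverse complement ACTTCC. C1qb lies on the minus strand at chr4:136886201-136886450, with the motif starting 53 bases before the start site. C1qc lies on the minus strand at chr4:136892915-136893164, with the motif 195 bases before it.
C1qb: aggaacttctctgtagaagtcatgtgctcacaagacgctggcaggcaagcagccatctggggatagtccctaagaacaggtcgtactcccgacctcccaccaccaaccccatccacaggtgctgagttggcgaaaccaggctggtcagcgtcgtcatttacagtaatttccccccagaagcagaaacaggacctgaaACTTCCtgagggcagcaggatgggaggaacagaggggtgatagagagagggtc
C1qc: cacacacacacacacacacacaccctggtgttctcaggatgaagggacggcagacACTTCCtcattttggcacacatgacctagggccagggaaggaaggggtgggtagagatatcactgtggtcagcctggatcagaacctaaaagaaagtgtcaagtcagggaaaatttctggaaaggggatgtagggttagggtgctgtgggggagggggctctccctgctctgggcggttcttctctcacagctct
Of the 24 complement genes with an entry, 8 held the motif on either strand, or 33.3%, against 20% of 27025 genes in the same window. The match is a description of letters, and no factor's binding was measured.

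The C1q chains were compared with each other and with macrophage markers. The ratio of C1qc to C1qb had a median of 0.766 in TNTProx1, between 0.690 and 0.912, and of 0.803 in TNTSham, between 0.759 and 0.816. The ratio of C1qa to C1qb had a median of 0.757 in TNTProx1, between 0.635 and 0.834, and of 0.815 in TNTSham, between 0.591 and 0.951. The summed level of the 3 chains was 208 to 439 CPM in TNTProx1, with a median of 364, and 191 to 330.5 CPM in TNTSham, with a median of 221. The 10 macrophage markers summed to 1349.8 to 2108 CPM in TNTProx1 and 1189 to 1968 CPM in TNTSham. Lyz2 weighed most on this sum, with a mean of 743 CPM in TNTProx1 and 574 CPM in TNTSham. In TNTProx1 4 it had 935 of the summed 1773 CPM, so the order of libraries depends on this gene. Of the 10 markers 9 were higher and 1 lower in TNTProx1, with a median log2 fold change of 0.29. At an unadjusted p under 0.05, 3 were higher, namely Cd68, Csf1r and Fcgr1, beside 8.33% of all genes. Their part in the C1q difference was not tested.

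**Figure D3:**
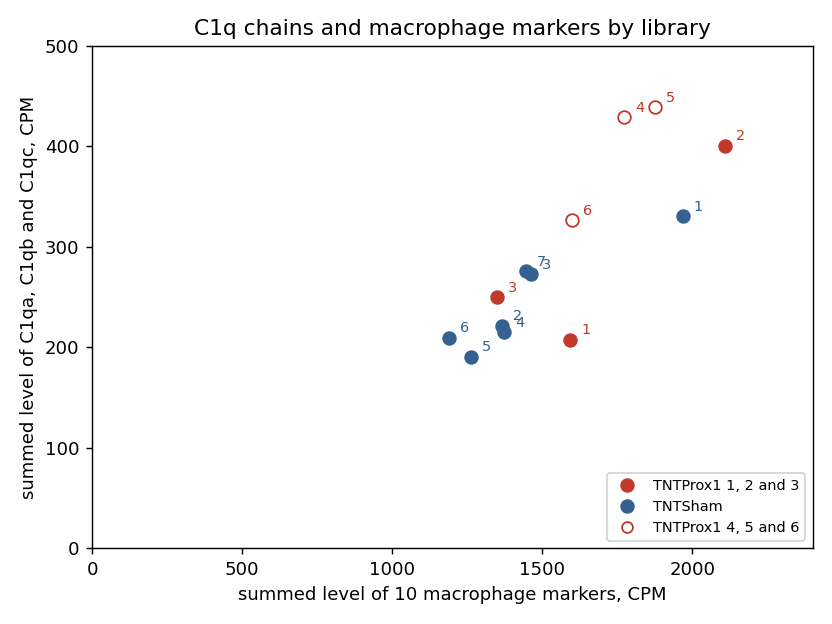
Summed level of C1qa, C1qb and C1qc (y axis, CPM) against the summed level of 10 macrophage markers (x axis, CPM), 1 point a library with its replicate number, red for TNTProx1 (open circles for 4 to 6) and blue for TNTSham. The 4 highest C1q sums are TNTProx1 2, 4 and 5 and TNTSham 1, which also have the 4 highest marker sums. TNTProx1 1 has a low C1q sum for its marker sum. Lyz2 weighs most on the marker sums, with 935 of 1773 CPM in TNTProx1 4.

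C1ra (ENSMUSG00000055172.11), a gene for the C1r protease that C1q activates, was the complement gene whose groups did not overlap. It had a lowest, median and highest value of 126, 132 and 149 CPM in TNTProx1, against 95.3, 116 and 125 CPM in TNTSham, so all 6 TNTProx1 libraries lay above the highest sham library. All TNTProx1 libraries were above all TNTSham libraries for 0.398% of all tested genes. The edgeR log2 fold change of C1ra was 0.30 ± 0.09 (unadjusted p = 0.00515, adjusted p = 0.181), and 0.31 ± 0.11 without TNTProx1 4 to 6. C1rb, its neighbouring copy on chromosome 6, averaged 57.0 ± 4.998 CPM in TNTProx1 and 49.2 ± 6.69 CPM in TNTSham, a log2 fold change of 0.21 ± 0.10 (unadjusted p = 0.0532, adjusted p = 0.415), with 4 TNTProx1 libraries above the sham range. The copies share 54.9% of the 35-base runs of C1ra, so reads can be split between them in a way the sources used here do not describe. Their ratio was 2.29 to 2.55 in TNTProx1 and 2.17 to 2.36 in TNTSham.

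The promoters of these copies, likewise 250 bases on the plus strand in GRCm38.p6, are shown because the copies are alike upstream of their starts as well as in their transcripts. Capitals mark the longest run they share, 34 bases, which starts 99 bases before the C1ra start site at chr6:124512371-124512620 and 250 bases before that of C1rb at chr6:124570180-124570429. With this run laid over itself, the windows overlap by 99 bases, of which 93 are identical. Neither window holds GGAAGT on either strand.
C1ra: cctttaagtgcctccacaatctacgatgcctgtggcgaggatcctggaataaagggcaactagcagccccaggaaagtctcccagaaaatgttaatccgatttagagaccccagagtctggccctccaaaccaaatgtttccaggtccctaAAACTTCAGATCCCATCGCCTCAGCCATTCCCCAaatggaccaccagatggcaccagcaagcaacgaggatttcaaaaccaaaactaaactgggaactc
C1rb: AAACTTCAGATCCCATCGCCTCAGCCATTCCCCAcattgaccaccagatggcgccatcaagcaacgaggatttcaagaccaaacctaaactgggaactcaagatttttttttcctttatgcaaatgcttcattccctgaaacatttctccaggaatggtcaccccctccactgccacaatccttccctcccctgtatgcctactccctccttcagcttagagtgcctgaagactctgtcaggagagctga

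The rest of the classical cascade differed less. C1s1, the protease that cuts C4 and C2, averaged 177 ± 22.1 CPM in TNTProx1 and 159 ± 34.4 CPM in TNTSham, a log2 fold change of 0.15 ± 0.14. C2, which supplies the catalytic part of the C3 convertase, averaged 59.4 ± 9.83 CPM in TNTProx1 and 55.6 ± 5.21 CPM in TNTSham, a log2 fold change of 0.10 ± 0.11. C4b, which supplies the part that binds covalently to targets, was the only classical gene with a lower mean, 189 ± 32.7 CPM in TNTProx1 and 203 ± 32.0 CPM in TNTSham, at -0.10 ± 0.13. Adjusted p-values of these 3 genes in edgeR were 0.691, 0.746 and 0.771. C4b shares 45.0% of its 35-base runs with C4a and C1s1 shares 30.3% with C1s2, which limits how far either copy can be read alone. C2 shares 1656 of 3872 exonic bases with Gm20547, a read-through gene that also covers 2246 of 2825 exonic bases of Cfb.

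**Figure D4:**
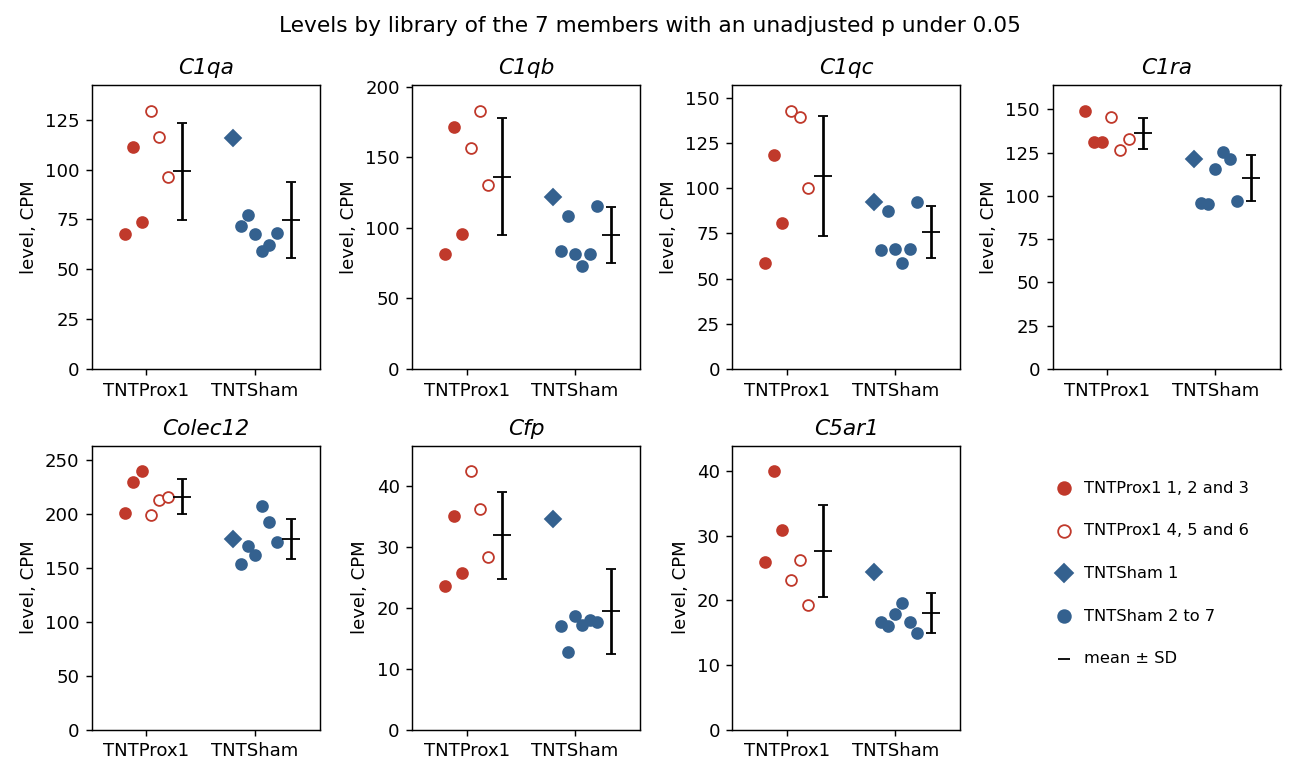
Level in CPM (y axis, from 0) in each library of TNTProx1 (red, n = 6, open circles for 4 to 6) and TNTSham (blue, n = 7, diamond for TNTSham 1) for the 7 complement genes with an unadjusted p under 0.05, with mean ± SD beside the points. The groups do not overlap for C1ra, TNTSham 1 lies among the TNTProx1 libraries for C1qa, Cfp and C5ar1, and TNTProx1 4 and 5 have the highest values of C1qa, C1qc and Cfp while TNTProx1 6 and 4 have the lowest TNTProx1 values of C5ar1.

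Among the genes listed under the lectin pathway, Colec12 stood higher in TNTProx1 and Masp1 had a lower mean. Whether Colec12 acts with MASP proteases was not measured, so its values are not a reading of that pathway. Colec12 (ENSMUSG00000036103.10), a membrane scavenger receptor of the collectin family on chromosome 18, had 199 to 239 CPM in TNTProx1, with a median of 214, against 153 to 207 CPM in TNTSham, with a median of 174. Only TNTProx1 1 and 4 fell within the sham range, and the sham libraries nearest to them were TNTSham 5 and 6. Its edgeR log2 fold change was 0.29 ± 0.09 (unadjusted p = 0.00521, adjusted p = 0.181), with 0.33 ± 0.11 without TNTProx1 4 to 6 and an adjusted p of 0.0419 in limma voom. Per kilobase Colec12 was also the most abundant gene of this list, at 24.8 CPM per kilobase in TNTProx1 and 20.2 in TNTSham. Masp1 had 6.70 CPM per kilobase in TNTProx1 and 7.48 in TNTSham. Fcna, a ficolin of macrophages, averaged 1.63 ± 0.335 CPM in TNTProx1 and 1.29 ± 0.595 CPM in TNTSham and Colec11, a soluble collectin, 1.43 ± 0.510 CPM in TNTProx1 and 1.73 ± 0.512 CPM in TNTSham. Their log2 fold changes were 0.34 ± 0.33 and -0.27 ± 0.30, each about as large as its SE.

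Masp1 (ENSMUSG00000022887.10), whose products include the protease that starts the lectin pathway, had a median of 64.7 CPM in TNTProx1 (lowest 55.4, highest 78.2) and of 73.4 CPM in TNTSham (lowest 55.2, highest 89.0). The groups overlapped almost fully. Its log2 fold change was -0.16 ± 0.12 (adjusted p = 0.622 in edgeR) and -0.21 ± 0.15 without TNTProx1 4 to 6. Masp1 counts hold all isoforms of the gene, so the MASP-3 isoform was not measured separately.

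C3 (ENSMUSG00000024164.16), on which all pathways converge, had a difference whose direction turned with the libraries used. It had a lowest, median and highest value of 201, 261 and 472 CPM in TNTProx1, against 258, 313 and 422 CPM in TNTSham. TNTProx1 1 was the highest library and TNTProx1 4, 5 and 6 were the 3 lowest, with a mean of 381 CPM in TNTProx1 1 to 3 and 219 CPM in TNTProx1 4 to 6. The log2 fold change was -0.12 ± 0.20 over 13 libraries (adjusted p = 0.834 in edgeR) and 0.22 ± 0.19 over 10. Cfb (ENSMUSG00000090231.11), the protease zymogen of the alternative convertase, had 129 to 173 CPM in TNTProx1, with a median of 149, against 122 to 152 CPM in TNTSham, with a median of 141, with 3 TNTProx1 libraries above the sham range. Its log2 fold change was 0.09 ± 0.09 (adjusted p = 0.706), and the read-through gene Gm20547, which shares most of its exons, had 125.6 to 177 CPM in TNTProx1 and 121 to 149 CPM in TNTSham.

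Cfp (ENSMUSG00000001128.8) encodes properdin, which stabilises the alternative convertase and is made by leukocytes. It had a median of 31.8 CPM in TNTProx1 (lowest 23.6, highest 42.5) and of 17.7 CPM in TNTSham (lowest 12.8, highest 34.7). TNTSham 1 alone reached 34.7 CPM among the sham libraries, and the other 6 lay between 12.8 and 18.6 CPM, below every TNTProx1 library. The edgeR log2 fold change was 0.72 ± 0.20 (unadjusted p = 0.00328, adjusted p = 0.158). It was 0.53 ± 0.24 without TNTProx1 4 to 6 and 0.92 without TNTSham 1 (unadjusted p = 3.19e-05, adjusted p = 0.0951). DESeq2 gave an adjusted p of 0.0462. Neutrophils store properdin, and the 8 neutrophil markers summed to 88.0 to 245 CPM in TNTProx1 and 37.9 to 278 CPM in TNTSham. Of the 6 tested markers 4 were higher, and 3 were higher without TNTProx1 4 to 6. At an unadjusted edgeR p under 0.05, 1 was higher, namely Cxcr2, beside 8.33% of all genes. The markers differed widely in level, so Ly6g does not stand for the list. Ly6g, a defining neutrophil marker, was at 0 to 0.231 CPM in TNTProx1 and 0 to 0.426 CPM in TNTSham. Elane was also low, at 0 to 0.145 CPM in TNTProx1 and 0 to 0.589 CPM in TNTSham. Mpo had 0 to 1.04 CPM in TNTProx1 and 0 to 1.66 CPM in TNTSham. In contrast, S100a8 had 27.7 to 121 CPM in TNTProx1 and 12.99 to 140 CPM in TNTSham. Csf3r had 15.9 to 56.3 CPM in TNTProx1 and 13.7 to 36.3 CPM in TNTSham. The part of neutrophil markers in the Cfp difference was not tested.

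The terminal genes were low, apart from C7, and no difference was detected. C7 (ENSMUSG00000079105.5), which anchors the forming membrane attack complex in the membrane, had a lowest, median and highest value of 20.6, 28.6 and 69.0 CPM in TNTProx1, against 1.37, 55.7 and 64.9 CPM in TNTSham. The sham minimum was TNTSham 1 alone, at 49 counts, and the other 6 sham libraries lay between 33.02 and 64.9 CPM. TNTProx1 1, 4, 5 and 6 lay below all 6 of these, and TNTProx1 2 and 3 did not. The log2 fold change was -0.32 ± 0.54 (adjusted p = 0.834 in edgeR) and 0.06 ± 0.68 without TNTProx1 4 to 6. C6 (ENSMUSG00000022181.17), the preceding component, had 0.00 to 3.78 CPM in TNTProx1, with a median of 1.33, against 1.17 to 2.32 CPM in TNTSham, with a median of 1.85, with 0 counts in TNTProx1 4, and a log2 fold change of -0.23 ± 0.67 (adjusted p = 0.91). Hc, the mouse gene for C5, averaged 2.18 ± 1.66 CPM in TNTProx1 and 2.12 ± 0.642 CPM in TNTSham, and its TNTProx1 values ran between 1 count in TNTProx1 4 and 209 counts in TNTProx1 6. Its log2 fold change was 0.04 ± 0.58. For both genes the SE exceeded the log2 fold change.

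Among the 9 regulators, 4 were higher and 5 lower, none at an unadjusted p under 0.05. Serping1 (ENSMUSG00000023224.13), whose product inactivates C1r, C1s and the MASPs, had a median of 527 CPM in TNTProx1 (lowest 477, highest 661) and of 541 CPM in TNTSham (lowest 414, highest 605), with a log2 fold change of 0.05 ± 0.11 (adjusted p = 0.871 in edgeR). The groups overlapped over most of their range. Clu (ENSMUSG00000022037.16), which encodes clusterin, a fluid-phase inhibitor of the membrane attack complex, had a lowest, median and highest value of 124, 148 and 156 CPM in TNTProx1, against 115, 133 and 153 CPM in TNTSham. Its log2 fold change was 0.10 ± 0.09 (adjusted p = 0.694 in edgeR). Its TNTProx1 values lay largely within the sham range.

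Of the membrane regulators, 4 had lower means in TNTProx1. Cd55, which speeds the decay of convertases, averaged 50.8 ± 17.7 CPM in TNTProx1 and 65.0 ± 16.3 CPM in TNTSham, at -0.36 ± 0.21 (unadjusted p = 0.118, adjusted p = 0.54 in edgeR). Cd46, a cofactor for C3b cleavage, averaged 8.58 ± 6.12 CPM in TNTProx1 and 12.1 ± 3.11 CPM in TNTSham, at -0.50 ± 0.43. Cr1l, the mouse regulator Crry, averaged 72.7 ± 8.74 CPM in TNTProx1 and 80.5 ± 7.04 CPM in TNTSham, at -0.15 ± 0.09, and Cd59a, which blocks the membrane attack complex, 11.7 ± 2.18 CPM in TNTProx1 and 12.9 ± 3.37 CPM in TNTSham, at -0.15 ± 0.18. The Cd46 difference lay in TNTProx1 4 to 6, with a mean of 3.13 CPM there and 14.02 CPM in TNTProx1 1 to 3. Over 10 libraries its log2 fold change was 0.21 ± 0.22, that of Cd55 -0.09 ± 0.21 and that of Cr1l -0.03 ± 0.09, while that of Cd59a was -0.29 ± 0.21, farther from 0 than over 13. A330023F24Rik, an antisense gene that covers 1079 of 7603 exonic bases of Cd46, showed the same split, with 2.75 to 3.17 CPM in TNTProx1 4 to 6, 15.04 to 19.2 CPM in TNTProx1 1 to 3, and 8.53 to 17.7 CPM in TNTSham. The sources used here do not give the strand setting of the counting. Tardbp, on the strand opposite Masp2, covers 1817 of its 3307 exonic bases. Tardbp also differed within TNTProx1, with 121 to 134 CPM in TNTProx1 4 to 6 and 163 to 222 CPM in TNTProx1 1 to 3. It had 153 to 192 CPM in TNTSham. Masp2 had 0 to 6 counts in TNTProx1 and 0 to 8 in TNTSham. Gm16567, opposite C1s1 over 576 of 3129 exonic bases, had at most 0.026 CPM in TNTProx1 and 0.021 CPM in TNTSham. Whether reads of Cd46 and A330023F24Rik were kept apart was not tested.

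The other soluble and membrane regulators were low. Cfi, the protease that degrades C3b and C4b, averaged 1.83 ± 0.591 CPM in TNTProx1 and 1.97 ± 0.505 CPM in TNTSham, at -0.10 ± 0.26. Vtn, which encodes vitronectin, averaged 2.75 ± 0.644 CPM in TNTProx1 and 2.71 ± 0.841 CPM in TNTSham, at 0.02 ± 0.24. Susd4, a membrane inhibitor of the convertases, averaged 6.63 ± 1.98 CPM in TNTProx1 and 6.44 ± 1.28 CPM in TNTSham, at 0.04 ± 0.19. In each case the difference was smaller than its SE.

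Of the 3 receptors of the small cleavage peptides, C5ar1 stood higher in TNTProx1, and C3ar1 and C5ar2 had higher means at unadjusted p-values above 0.05. C5ar1 (ENSMUSG00000049130.7), the main C5a receptor of neutrophils, monocytes and macrophages, had 19.3 to 39.9 CPM in TNTProx1, with a median of 26.1, against 14.99 to 24.4 CPM in TNTSham, with a median of 16.7. The highest library was TNTProx1 2, the 3 libraries TNTProx1 4 to 6 lay below TNTProx1 2 and 3, and the highest sham library was TNTSham 1. The groups overlapped, with 4 TNTProx1 libraries above the sham range. The edgeR log2 fold change was 0.61 ± 0.16 (unadjusted p = 0.00162, adjusted p = 0.131), the smallest p of the set. Adjusted p-values were 0.0372 in DESeq2, 0.0287 in limma voom and 0.0304 in edgeR with the share of TEC counts as a covariate (2.38% of all genes called). Without TNTProx1 4 to 6 the log2 fold change was 0.83 ± 0.16 (unadjusted p = 0.000183, adjusted p = 0.0685 in edgeR), larger than over 13 libraries, while those of the C1q chains were smaller. When 1 library was left out, the C5ar1 value ran between 0.48, without TNTProx1 2, and 0.70, without TNTSham 1.

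C5ar1 and C5ar2, which encodes a C5a receptor that does not couple to G proteins, are both on chromosome 7. Their promoters are shown because each holds GGAAGT, or its reverse complement, more than once within 250 bases, as do 2.79% of all genes in the table. C5ar1 is on the minus strand at chr7:16259339-16259588, with copies starting 190 and 72 bases before the start site. C5ar2 is on the minus strand at chr7:16244155-16244404, with copies starting 115 and 99 bases before it. Capitals mark the motif.
C5ar1: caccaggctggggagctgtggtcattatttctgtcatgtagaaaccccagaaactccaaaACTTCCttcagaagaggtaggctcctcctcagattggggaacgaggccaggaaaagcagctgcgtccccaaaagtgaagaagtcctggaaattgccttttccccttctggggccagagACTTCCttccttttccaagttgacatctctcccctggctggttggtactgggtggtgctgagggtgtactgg
C5ar2: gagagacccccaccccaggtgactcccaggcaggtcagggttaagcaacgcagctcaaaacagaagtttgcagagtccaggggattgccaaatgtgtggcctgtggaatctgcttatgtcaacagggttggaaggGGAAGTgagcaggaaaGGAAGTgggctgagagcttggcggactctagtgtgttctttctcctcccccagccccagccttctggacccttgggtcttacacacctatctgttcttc

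C3ar1 (ENSMUSG00000040552.9), the C3a receptor, had a median of 66.3 CPM in TNTProx1 (lowest 55.3, highest 102) and of 55.7 CPM in TNTSham (lowest 45.5, highest 75.8). TNTProx1 1 and 2 lay above the sham range, and the other 4 within it. The log2 fold change was 0.31 ± 0.15 (unadjusted p = 0.059, adjusted p = 0.431 in edgeR), 0.18 without TNTProx1 2, and 0.53 ± 0.15 over the 10 libraries without TNTProx1 4 to 6 (unadjusted p = 0.00486, adjusted p = 0.0882). C5ar2 averaged 6.49 ± 2.45 CPM in TNTProx1 and 4.97 ± 1.64 CPM in TNTSham, at 0.38 ± 0.27 (unadjusted p = 0.173, adjusted p = 0.609 in edgeR), with 2 TNTProx1 libraries above the sham range and 1 below it. Cr2, the C3d receptor of B cells and follicular dendritic cells, averaged 1.11 ± 0.999 CPM in TNTProx1 and 1.30 ± 0.895 CPM in TNTSham, at -0.23 ± 0.71. The 6 B cell markers summed to 5.45 to 28.8 CPM in TNTProx1 and 5.34 to 25.5 CPM in TNTSham, all 6 with a lower log2 fold change and a median of -0.29; without TNTProx1 4 to 6 the median was 0.02, with 4 of 6 higher. The part of macrophage markers, given above, in the receptor differences was not tested.

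**Figure D5:**
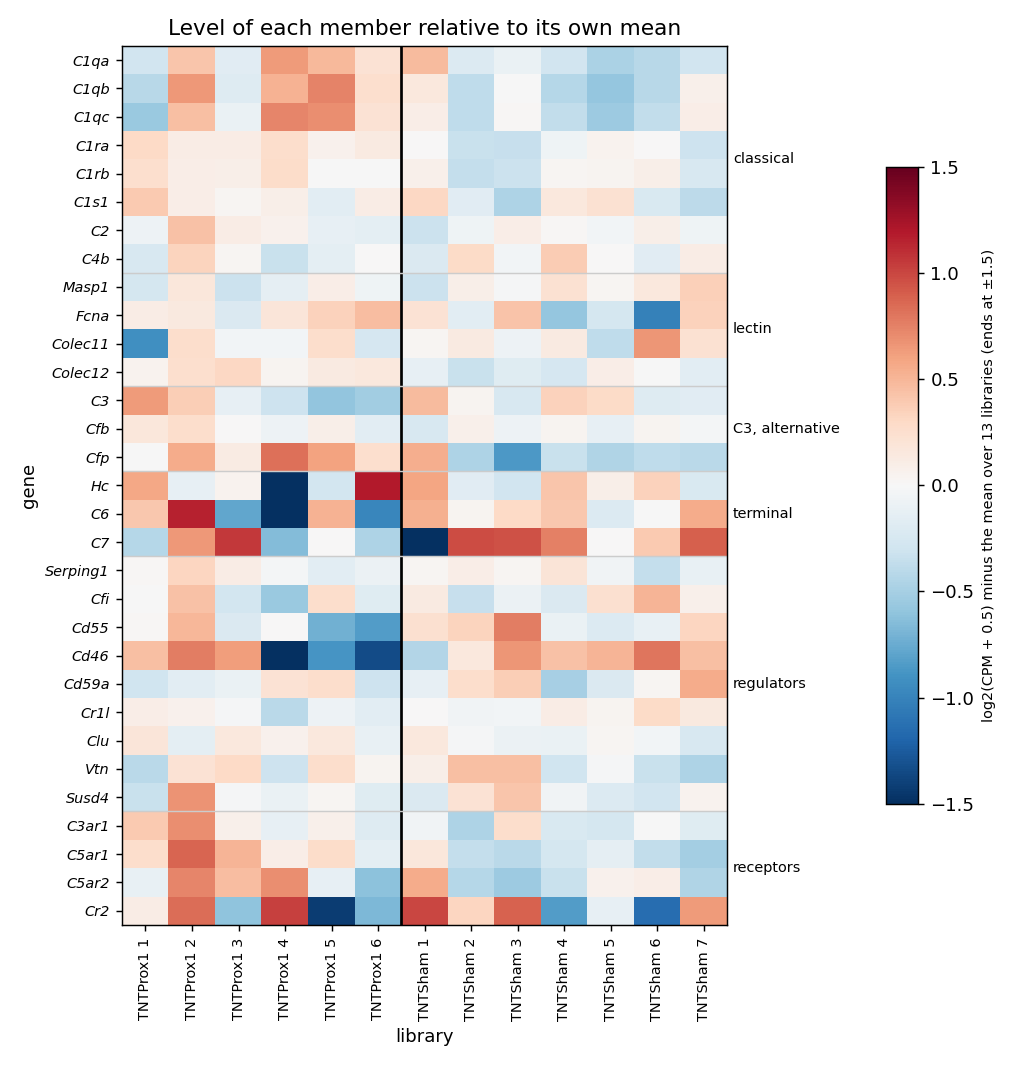
Level of each tested complement gene (y axis, by role) in each library (x axis, TNTProx1 left of the line and TNTSham right of it), coloured by log2(CPM + 0.5) minus the gene's own mean over 13 libraries, red above and blue below, with colours ending at ± 1.5. C1qa, C1qb and C1qc are red in TNTProx1 2, 4, 5 and 6, while C1ra is red in all 6 TNTProx1 libraries, and C7 in TNTSham 1 and Cd46 in TNTProx1 4 and 6 are deep blue.

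In the map of levels by library, genes of the C1 complex differed in where they were high, which was not tested. C1q was high in TNTProx1 2, 4, 5 and 6 and in TNTSham 1. C1ra lay above the sham range in all 6 TNTProx1 libraries, C1rb in 4 and C1s1 in 1. The 8 fibroblast markers, from cells that make C1r, summed to 3829 to 5283 CPM in TNTProx1 and 3645 to 4709 CPM in TNTSham. All 8 had a higher log2 fold change, with a median of 0.25. At an unadjusted p under 0.05, 1 was higher, beside 8.33% of all genes. The other complement genes named above as made by fibroblasts had log2 fold changes of 0.15 ± 0.14 (C1s1), 0.05 ± 0.11 (Serping1) and -0.12 ± 0.20 (C3). The 9 skeletal muscle markers went the other way from the fibroblast markers, with 8 lower and a median log2 fold change of -0.73 (-0.88 without TNTProx1 4 to 6). At an unadjusted p under 0.05, 6 were lower, beside 3.92% of all genes. Their summed levels were 4195 to 11709 CPM in TNTProx1 and 9149 to 15577 CPM in TNTSham. The part of fibroblast and muscle markers in the C1ra difference was not tested.

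Further genes of the cascade were read from a list of 29, of which 21 were tested. Of these 13 were higher and 8 lower, 3 and 0 at an unadjusted p under 0.05, where 8.33% of all genes were higher and 3.92% lower. None passed the adjusted threshold in edgeR, and the median log2 fold change was 0.12. Itgb2, the beta chain of complement receptors 3 and 4, averaged 62.1 ± 8.25 CPM in TNTProx1 and 45.8 ± 4.99 CPM in TNTSham, at 0.44 ± 0.10 (unadjusted p = 0.000693, adjusted p = 0.119 in edgeR; adjusted p = 0.0231 in DESeq2 and 0.034 in limma voom). Cd93, once described as a C1q receptor and expressed by endothelium, averaged 239.8 ± 80.5 CPM in TNTProx1 and 138 ± 57.7 CPM in TNTSham, at 0.79 ± 0.26 (unadjusted p = 0.00788, adjusted p = 0.215).

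The 8 blood endothelial markers summed to 650.3 to 866 CPM in TNTProx1 and 379 to 692 CPM in TNTSham. All 8 were higher, 7 of them at an unadjusted p under 0.05, beside 8.33% of all genes. Their part in the Cd93 difference was not tested. Cfd, the adipocyte protease that activates factor B, averaged 106 ± 46.8 CPM in TNTProx1 and 86.6 ± 40.4 CPM in TNTSham, at 0.29 ± 0.35, and Thbd, an endothelial cofactor, 96.4 ± 28.0 CPM in TNTProx1 and 96.6 ± 30.6 CPM in TNTSham. C8b, Mbl1, Mbl2 and C4bp, made in liver, were under 0.1 CPM in every library.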

How the data were processed

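The authors deposited 1 table of raw counts per gene for all 13 samples. Per the labels' protocols, ribosomal RNA was depleted and stranded paired-end libraries were sequenced. Per the submitters' processing notes, fastp 0.20.1, HISAT2 2.2.1, the build GRCm39, featureCounts of Subread 2.0.2, and DESeq2 1.34.0 under R 4.1.2 were used. The sources used here give neither the strand setting nor the handling of multi-mapping reads.

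Symbols, gene classes, exon lengths and overlaps came from GENCODE M21, on an older build, matched by identifier for 52081 genes; 3276 did not match. Counts were TMM-scaled (trimmed mean of M values) and filtered with filterByExpr, which kept 22876 genes, and the groups were compared with edgeR 4.0.16 (quasi-likelihood test, group alone, R 4.3.3) with Benjamini-Hochberg adjustment over all tested genes at 0.05. An SE is the absolute log2 fold change divided by the square root of F. The procedure was checked on simulated counts. Depth was 29691929 to 48007392 counts a library, and the common dispersion was 0.131. No pair of libraries was identical.

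Alternatives were DESeq2 1.42.0, its size factors, upper quartile scaling, no filter, at least 1 CPM in 6 libraries, limma 3.58.1 (voom with quality weights, and trend), the share of TEC counts as a covariate, the 10 libraries without TNTProx1 4 to 6, and leaving out each library in turn. Members and lists were chosen with earlier results of these data known. Every tested member is named; values by group are given as lowest, median and highest for those with an unadjusted p under 0.05 and the 2 of highest level per length in each role. Of the 29 further genes, those with such a p and the 3 of highest level per length are named, except 1 gene that is not reported here. Genes read as neighbours or near copies, namely Gm20547, A330023F24Rik, Tardbp and Gm16567, were chosen after their values were seen. Promoters are from RefSeq, GRCm38.p6. The motif and the genes whose promoters are printed were chosen after their values were seen.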

Additional observations from a re-analysis of the deposited data

Results flagged for a closer look

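In 5 of 62 sets of values (31 tested genes in each group), 1 library lay far from the rest of its group on the log2(CPM + 0.5) scale; chance gives about 1 in 20. TNTSham 1 accounted for 4 of them. C1qa was at 116 CPM there, against 59.4 to 77.2 CPM in the other sham libraries. Cfp was at 34.7 CPM, against 12.8 to 18.6 CPM. C2 was at 45.6 CPM, below the 54.6 to 61.1 CPM of the others. C7 was at 1.37 CPM, or 49 counts, where the others had 33.02 to 64.9 CPM. In TNTProx1, Susd4 was at 10.5 CPM in TNTProx1 2, against 4.95 to 6.53 CPM in the other 5 libraries. TNTSham 1 was also the library with Xist. Its summed mast cell markers, at 423 CPM, and neutrophil markers, at 278 CPM, were the highest of all 13. Its summed macrophage markers, at 1968 CPM, were the highest of the sham libraries. The part of Xist or of any of these markers in the flagged values was not tested.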

How the results depend on the processing

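In all 22 alternatives 21 of the 31 tested complement genes kept their direction and 10 turned. Calls over all genes were 0 in edgeR, 556 in DESeq2, 1 without the low-count filter, 573 in limma voom and 545 with the TEC share as covariate; leaving out 1 library gave 0 to 589, with 589 without TNTProx1 1 and 34 without TNTSham 5. Complement calls were 0 in edgeR, 2 in DESeq2, 2 in voom, 1 with the TEC covariate and 0 to 0 when 1 library was left out, while those at an unadjusted p under 0.05 were 6 to 9 higher; Cd55 was lower at that p without TNTProx1 2. The median of the complement genes was 0.17 over the 10 libraries and 0.0038 to 0.094 with 1 library left out. Without TNTProx1 4 to 6, log2 fold changes turned for C3 (0.22), C6 (0.26), C7 (0.062), Cfi (0.022), Cd46 (0.21) and Cfd (-0.30). With the TEC covariate they turned for C3 (0.053), Hc (-0.014), Vtn (-0.016) and Cfd (-0.084). In voom they turned for C7 (0.31), Susd4 (-0.038) and Cfd (-0.29), and in limma trend for Hc (-0.63) and C7 (0.10). With 1 library left out they ran between -0.74 and 0.033 for C6, -0.25 and 0.0091 for Cfi, -0.65 and 0.023 for Cr2, -0.38 and 0.30 for Hc, -0.011 and 0.089 for Serping1, -0.14 and 0.12 for Susd4, -0.068 and 0.12 for Vtn and -0.13 and 0.16 for Thbd; the cause was not tested. The C1q chains had unadjusted p-values above 0.05 over the 10 libraries, in voom and with the TEC covariate. No paired analysis was possible because the replicate numbers follow accession order and pair no samples. Masp2 and C8g, at 0 to 13 counts a library, could not be compared at this depth.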
